A study of Mus musculus with 12 samples.

Results

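The ubiquitin-specific proteases were taken as every listed gene whose symbol is Usp followed by a digit, with Usp9x and Usp9y left out. The rule found 54 of 23282 gene rows. Of these, 49 had a count in some library and 46 had enough counts to be tested. The other 8 were Usp44, Usp50, Usp26 and the 5 copies Usp17la, Usp17lb, Usp17lc, Usp17ld and Usp17le, none with more than 6 counts in any library. The Usp17l copies are near-identical, so reads from them could be split or lost in counting. Usp6nl fits the pattern by name but encodes a Rab GTPase-activating protein and not a protease, and it was kept because the rule keeps it.

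Ubiquitin-specific proteases are cysteine proteases that remove ubiquitin from other proteins and thereby oppose ubiquitin ligases. USP28 is known for stabilising substrates of the ligase adaptor FBXW7, among them MYC, and for acting with 53BP1 after DNA damage. USP25 is its closest relative. Other members act on p53 and its ligase MDM2, on ubiquitinated histones, on receptors in endosomes, on proteins at mitochondria and the endoplasmic reticulum, or on ubiquitin chains at the proteasome.

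The RNA came from striatum and cortex of R6/2 mice, called HD mice here, and of WT mice. R6/2 mice carry a transgene for an N-terminal fragment of human huntingtin with an expanded CAG repeat, driven by the human huntingtin promoter, beside their own huntingtin alleles. They were sampled at 8 weeks (pre-symptomatic) and at 13 weeks (post-symptomatic), with WT mice of both ages. Each HD group of 1 age and 1 region had 2 libraries and each WT group had 1, which gave 8 HD and 4 WT libraries. The labels do not name animals. The 2 libraries of each HD group differed in sex by their counts (given with the library properties) and so were not from the same mouse, but whether a striatum and a cortex shared a mouse is not known, and each WT group had no repeat. The p-values measure only the spread between these libraries. The bulk samples cannot tell fewer cells of a type from less RNA per cell.

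Libraries held 8814386 to 12091201 counts, and 20630 to 30588 of these fell on the ubiquitin-specific proteases. Several properties moved with the groups. The ribosomal RNA precursor Rn45s took 10.5% to 15.2% of the counts in HD libraries and 4.32% to 5.62% in WT libraries. By Xist and Y-linked counts, HD replicate 1 was male and HD replicate 2 female in every group, both 13-week WT libraries were female and both 8-week WT libraries were male. Markers of the labelled regions followed the labels, with all 8 tested striatal projection neuron markers higher in striatum and 7 of 8 cortical excitatory neuron markers higher in cortex. In striatum the 10 summed striatal projection neuron markers were at 1383 and 1408 TMM-scaled CPM in post-symptomatic HD, 7306 and 2306 in pre-symptomatic HD and 7113 and 7739 in WT libraries, and of the 8 tested 3 fell between stages and 4 were lower in HD than in WT at 13 weeks. Summed astrocyte markers ran from 2314 to 3040 in post-symptomatic HD, 3865 to 5322 in pre-symptomatic HD and 3136 to 3996 in WT libraries of both regions (1 of 7 fell between stages). Summed cortical excitatory neuron markers were at 1267 and 1247 in post-symptomatic HD cortex against 1713 to 1987 in the other cortical libraries. Over both regions none of the 8 was called between stages or genotypes, and in striatum alone 1 fell between stages (Neurod2). Replicate 2 of pre-symptomatic HD striatum stood apart, with summed oligodendrocyte markers at 20450 TMM-scaled CPM against 3288 to 7136 in the other striatal libraries, summed thalamus markers at 1606 against 91.6 to 222, and summed choroid plexus markers at 956 against 14.6 to 125. Replicate 2 of post-symptomatic HD cortex stood apart too, with summed choroid plexus markers at 3009 against 2.10 to 67.96 in the other cortical libraries. Results for called members are given without each of these libraries, and the share of all genes called was not counted in such fits. Fits without Rn45s, and on all 12 libraries with sex as a term, were among the alternatives. Otherwise the part of these properties in the results was not tested.

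Levels are given as CPM, the count as a share of the library, scaled between libraries by the trimmed mean of M-values (TMM-scaled CPM). The libraries were read from the 3′ ends of transcripts, so counts were not divided by gene length. Usp34, a very large protease known for acting on axin in Wnt signalling, had the highest mean over the 12 libraries at 262 TMM-scaled CPM. Usp22, the histone deubiquitinase of the SAGA complex, followed at 220 TMM-scaled CPM, and Usp7, which acts on MDM2 and p53, at 176 TMM-scaled CPM. These 3 genes held 23.2% to 30.2% of the summed level of the family in a library.

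Usp28 was among the lowest of the family. Its mean level was 6.51 TMM-scaled CPM, the 41st of the 46 tested members, next to Usp53 at 6.57 and Usp49 at 4.89 TMM-scaled CPM. Only Usp49, Usp6nl, Usp51, Usp18 and Usp43 were lower among the members tested. Its counts ran from 25 to 142 per library, for which counting error alone is 20% and 8.39% of the value. Its highest library exceeded its lowest 6.13-fold, which among members counted at least 20 times in every library was the widest range, ahead of Usp53 at 4.98-fold and Usp49 at 4.26-fold. Usp25 ranked 33rd with a mean of 20.9 TMM-scaled CPM. The summed level of the family ran from 2218 to 2654 TMM-scaled CPM and was 2324 to 2454 in the WT libraries.

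**Figure D1:**
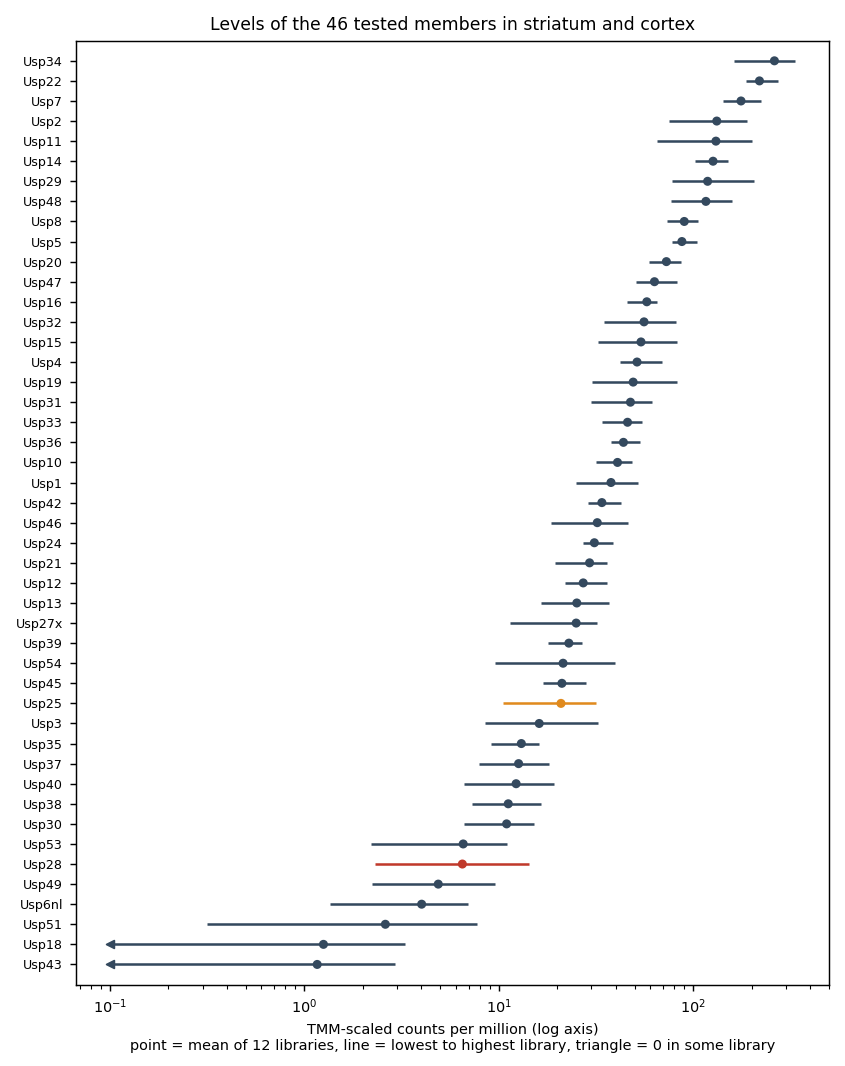
Mean TMM-scaled CPM of the 46 tested members over 12 libraries on a log axis, with a line from the lowest to the highest library; triangles mark members at 0 in some library. Usp34 tops the family at 262, Usp25 (orange) lies at 20.9 and Usp28 (red) at 6.51 TMM-scaled CPM.

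Usp28 was lower in every HD library than in every WT library of the same region. In WT striatum it stood at 14.3 TMM-scaled CPM at 8 weeks and 10.2 at 13 weeks. In HD striatum it stood at 8.98 and 6.88 TMM-scaled CPM in the pre-symptomatic replicates and at 2.33 and 3.31 in the post-symptomatic replicates. In cortex it stood at 6.30 and 8.74 TMM-scaled CPM in WT at 8 and 13 weeks, at 3.36 and 5.33 in pre-symptomatic HD and at 3.61 and 4.76 in post-symptomatic HD mice. The striatal HD stages did not overlap, whereas the cortical HD stages did.

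Usp31, a protease linked to NF-kappaB signalling, was the only other tested member lower in all HD than in all WT libraries of each region, which made 2 of 46 members (4.35%) against 3.72% of all genes tested. In striatum Usp31 was at 29.985 to 42.4 TMM-scaled CPM in HD and 47.4 and 58.2 in WT, and in cortex at 43.8 to 55.8 in HD and 60.8 and 61.3 in WT. Usp7, Usp25, Usp34, Usp37 and Usp53 were higher in all HD than in all WT libraries of each region, 5 of 46 members (10.9%) against 5.68% of all genes tested.

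Usp25 moved the other way from Usp28. USP25 is known for acting in interferon and cytokine signalling and on tankyrases. In striatum Usp25 was at 12.8 and 10.6 TMM-scaled CPM in WT at 8 and 13 weeks, at 15.4 and 20.3 in pre-symptomatic HD and at 21.7 and 28.6 in post-symptomatic HD mice. Cortical Usp25 was at 14.7 and 14.9 TMM-scaled CPM in WT, at 25.2 and 24.8 in pre-symptomatic HD and at 30.5 and 31.5 in post-symptomatic HD mice. Each step from WT to pre-symptomatic and on to post-symptomatic HD was free of overlap in both regions.

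Taken as counts in the same library, there were 0.894 and 1.04 Usp25 counts per Usp28 count in WT striatum at 8 and 13 weeks. In HD striatum the ratio was 1.71 and 2.95 in pre-symptomatic and 9.32 and 8.65 in post-symptomatic replicates. In cortex it was 2.34 and 1.71 in WT, 7.50 and 4.65 in pre-symptomatic HD and 8.45 and 6.61 in post-symptomatic HD mice. The ratio needs no scaling between libraries. It was above both WT values of its region in all 8 HD libraries, which follows from the levels of the 2 genes given above. The pre-symptomatic ratios were higher in cortex than in striatum.

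**Figure D2:**
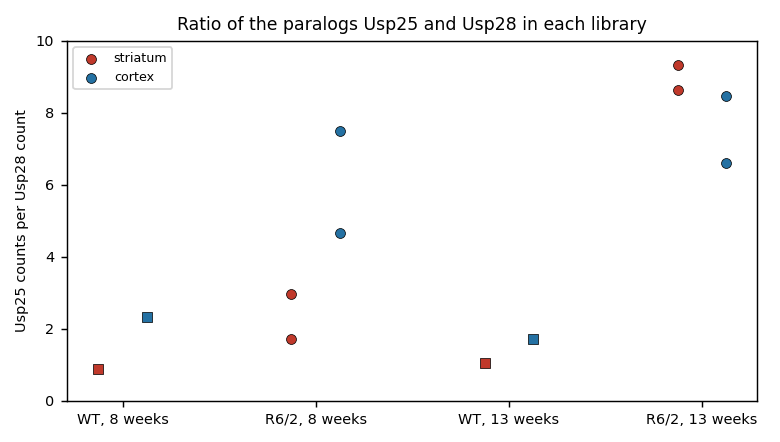
Usp25 counts per Usp28 count in each of the 12 libraries, by genotype and age; red is striatum, blue is cortex, squares are WT and circles are HD (R6/2) libraries. Post-symptomatic HD libraries lie between 6.61 and 9.32 and WT libraries between 0.894 and 2.34.

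The promoter windows of this pair are shown because the genes diverged in level. The windows are RefSeq's on GRCm38.p6, from 250 bases before to 50 bases after the annotated start. In GENCODE M21 Usp25 starts upstream of its window, at 77013706, so that window lies inside the gene. Usp28 starts inside its window there, at 48985375. Capitals mark matches to GGGCGG (the GC box) or CCAAT on either strand.
Usp28, chr9:48985135-48985434, plus strand: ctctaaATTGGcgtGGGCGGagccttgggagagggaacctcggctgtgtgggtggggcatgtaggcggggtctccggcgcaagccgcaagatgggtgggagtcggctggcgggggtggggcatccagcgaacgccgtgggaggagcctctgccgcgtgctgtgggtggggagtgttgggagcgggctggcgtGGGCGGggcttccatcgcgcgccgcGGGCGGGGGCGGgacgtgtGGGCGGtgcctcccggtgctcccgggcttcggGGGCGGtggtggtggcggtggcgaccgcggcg
Usp25, chr16:77013819-77014118, plus strand: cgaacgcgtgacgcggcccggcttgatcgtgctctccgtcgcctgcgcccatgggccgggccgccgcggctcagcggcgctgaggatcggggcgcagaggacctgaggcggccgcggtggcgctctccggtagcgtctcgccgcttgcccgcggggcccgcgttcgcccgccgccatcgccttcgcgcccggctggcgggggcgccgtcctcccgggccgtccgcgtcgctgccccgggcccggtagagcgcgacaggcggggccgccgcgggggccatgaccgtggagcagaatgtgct

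The Usp28 window held 6 matches to GGGCGG and 1 to CCAAT, and the Usp25 window held neither. By the GENCODE starts these windows are placed differently on their genes, so the counts do not compare their upstream promoters. GGGCGG occurred in 28 of the 43 windows found for 42 members, against 35.7% of all 32851 promoter windows, and CCAAT in 13 of the 43 against 37.4%. Of the other motifs searched on both strands, CACGTG (the E-box) was in 5 of the 43 windows against 7.15% of all and TATAAA in 5 against 13.6%. Neither was in the Usp28 or Usp25 window. Usp28 had 35 CG dinucleotides and Usp25 had 54, against a median of 7 over all windows.

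Within HD mice, the stages were compared over both regions to find which members changed with symptom onset. Usp2 and Usp15 fell and Usp19 rose. These 3 of 46 members (6.52%) stand against 6.45% of all 13944 genes tested, which is close to the background (1 member higher, 2.17% against 1.93%, and 2 lower, 4.35% against 4.53%). With no overlap in either region, 5 members were higher after symptom onset (10.9%, against 9.36% of all genes) and 3 were lower (6.52%, against 11.3%). The median log2 fold change was -0.0066 over the members and 0.0023 over all genes.

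Usp2 is known for a clock-controlled transcript and for acting on MDM2 and cyclin D1. It was at 160 and 131 TMM-scaled CPM in pre-symptomatic HD striatum and at 77.4 and 105 in post-symptomatic striatum. In HD cortex it was at 174 and 190 TMM-scaled CPM before and at 75.6 and 86.5 after symptom onset. The stages did not overlap in either region, and WT libraries lay between 143 and 153 TMM-scaled CPM. Usp2 fell by 0.91 on the log2 scale (SE 0.16, adjusted p = 0.0113 by the quasi-likelihood test of edgeR).

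Usp15 acts on SMAD signalling and opposes Parkin at mitochondria. It was at 63.5 and 62.5 TMM-scaled CPM in pre-symptomatic HD striatum and at 46.5 and 41.5 in post-symptomatic striatum. In HD cortex it was at 82.7 and 77.1 TMM-scaled CPM before and at 52.2 and 44.7 after symptom onset. Usp15 fell by 0.61 on the log2 scale (SE 0.12, edgeR adjusted p = 0.0173), with no overlap in either region. The post-symptomatic values lay near those of WT mice, which were 32.5 and 41.4 TMM-scaled CPM in striatum and 53.6 and 49.4 in cortex.

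Usp19 has a form anchored in the endoplasmic reticulum membrane. It was at 30.7 and 30.1 TMM-scaled CPM in pre-symptomatic HD striatum and at 56.9 and 52.7 in post-symptomatic striatum. In HD cortex it was at 51.7 and 40.4 TMM-scaled CPM before and at 58.9 and 60.5 after symptom onset. Usp19 rose by a log2 fold change of 0.62 (SE 0.15, edgeR adjusted p = 0.0360). The WT striatal library at 8 weeks had the highest Usp19 level of all at 82.8 TMM-scaled CPM, against 36.2 at 13 weeks. These single WT libraries thus differed in the opposite direction to HD striatum. WT cortex was at 41.6 TMM-scaled CPM at 8 weeks and 47.6 at 13 weeks, the same direction as HD cortex. The WT libraries of 8 and 13 weeks also differed in sex.

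For Usp28 the stage difference was a log2 fold change of -0.75 (SE 0.37, 95% interval -1.59 to 0.080, edgeR adjusted p = 0.267), the third lowest of the 46 members after Usp43 and Usp2. It ran from -1.03 without cortical replicate 1 of pre-symptomatic HD to -0.50 without striatal replicate 1 of post-symptomatic HD. Without cortical replicate 2 of post-symptomatic HD it was -0.97. Usp25 had an estimate of 0.41 (SE 0.16, edgeR adjusted p = 0.162). Permuting the stages of Usp28 within each region (exact, two-sided) gave p = 0.167, where the smallest possible was 0.0556. Usp18, an interferon-induced protease that acts on ISG15, had the highest estimate at 1.82 (SE 0.55, adjusted p = 0.0805 in edgeR and 0.0201 in DESeq2), from 34 counts or fewer per library. Usp12, which opposes mutant huntingtin toxicity in cell and fly models, had a log2 fold change of -0.21 (edgeR adjusted p = 0.406) and Usp47, which acts in base excision repair, one of 0.29 (edgeR adjusted p = 0.175). The calls of Usp2 and Usp15 did not pass without any 1 of the 4 cortical libraries, with adjusted p up to 0.0580 and 0.0801. That of Usp19 did not pass without any 1 of the 4 post-symptomatic libraries or cortical replicate 2 of the pre-symptomatic mice (up to 0.122). Without replicate 2 of pre-symptomatic striatum, 4 members passed, these 3 among them. Without replicate 2 of post-symptomatic cortex none passed in edgeR, 6 had an unadjusted p under 0.05, and the adjusted p was 0.0580 for Usp2, 0.0739 for Usp15 and 0.0901 for Usp19.

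Fitted by region, the stage comparison in cortex called Usp2 alone, at a log2 fold change of -1.18 (SE 0.20, edgeR adjusted p = 0.0434), against 0.591% of 14392 genes. Its call did not pass without any 1 library except the pre-symptomatic striatal ones, with adjusted p up to 0.396 (0.392 without replicate 2 of post-symptomatic cortex). In striatum no member passed in edgeR, against 0.16% of the 14392 genes. At an unadjusted p under 0.05 were 7 of 46 members and 1872 of these genes. DESeq2 called 1 member there, Usp19. Without replicate 2 of pre-symptomatic striatum the log2 fold change was -0.80 for Usp2 and 0.85 for Usp19. Without replicate 1 it was 1.39 for Usp11, 0.88 for Usp19, 1.19 for Usp27x and 0.65 for Usp34. That fit leaves only replicate 2, which stood apart by its markers. There Usp11 was at 65.6 TMM-scaled CPM, against 201 in replicate 1, and Usp27x at 11.4 against 29.5. Usp11 and Usp27x are X-linked, and these replicates also differed in sex. For Usp28 the log2 fold change was -1.46 in striatum (SE 0.45, edgeR adjusted p = 0.229) and -0.06 in cortex (SE 0.44, edgeR adjusted p = 0.9746). Its striatal value ran from -1.73 to -1.22 in the fits without 1 library. The difference between the regions was -1.40 (95% interval -2.81 to 0.017, edgeR adjusted p = 0.9999), so a difference between them was not shown. No member and no gene passed in that test. There 3 of 46 members had an unadjusted p under 0.05, as did 519 of 14392 genes.

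**Figure D3:**
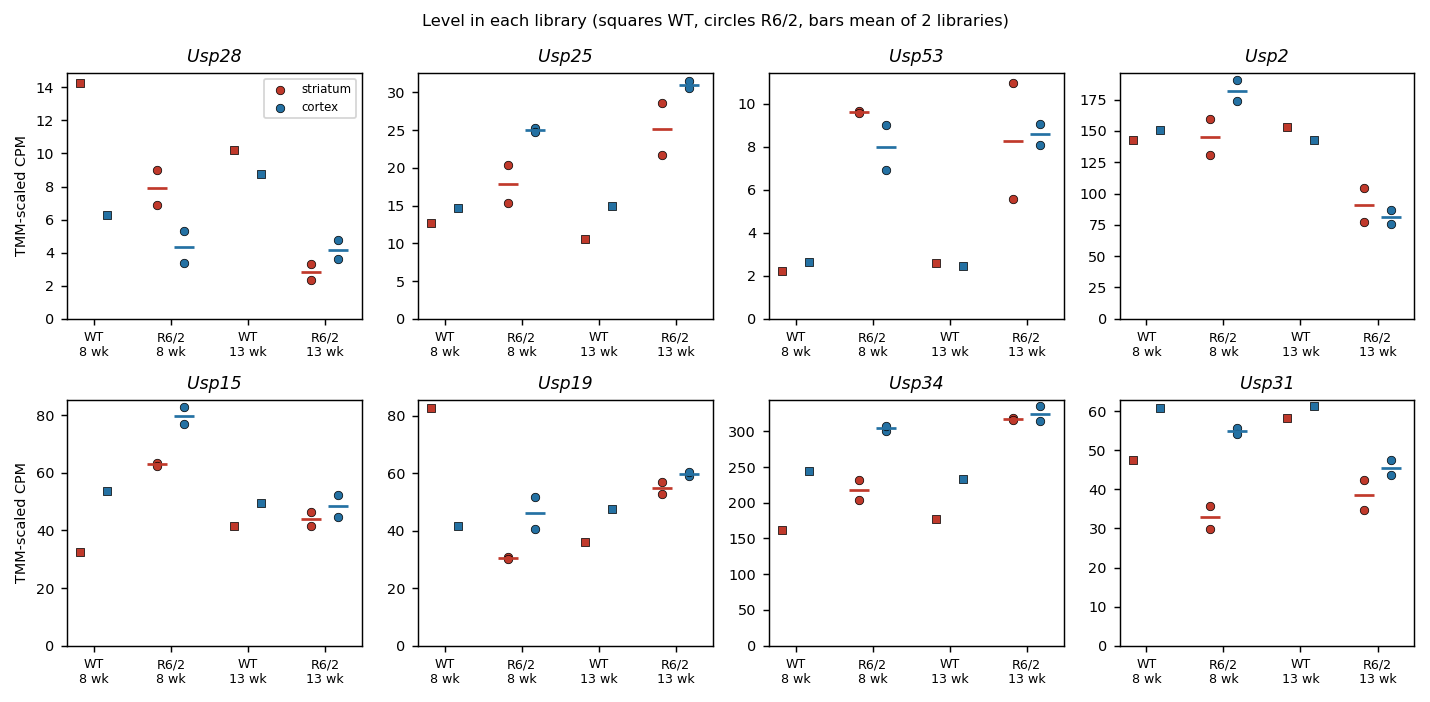
TMM-scaled CPM of 8 members in each library, by genotype and age, with striatum in red and cortex in blue; squares are WT libraries, circles are HD (R6/2) libraries and bars are means of 2 libraries. Usp2 and Usp15 are lower and Usp19 is higher in post-symptomatic than in pre-symptomatic HD libraries of each region, and Usp28 and Usp31 are lower in HD than in WT libraries of each region.

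The 13-week libraries were compared by genotype to see which members differed once symptoms had set in. Usp53, Usp25 and Usp34 were higher in HD mice and Usp2 was lower. These 4 of 46 members (8.70%) stand against 7.36% of all 14706 genes tested, with 3 higher (6.52% against 3.1%) and 1 lower (2.17% against 4.26%). The median log2 fold change was 0.079 over the members and 0.015 over all genes. This comparison shares the post-symptomatic HD libraries with the comparison of stages.

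Usp53 encodes a protein of cell junctions. It was at 5.58 and 10.993 TMM-scaled CPM in HD striatum and 8.09 and 9.09 in HD cortex at 13 weeks, against 2.58 and 2.46 in the WT libraries. Its log2 fold change was 1.74 (SE 0.35, edgeR adjusted p = 0.0115), the highest called among the members. For Usp25 the log2 fold change was 1.15 (SE 0.20, edgeR adjusted p = 0.00626).

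Usp34 was at 319 and 315 TMM-scaled CPM in HD striatum and 335 and 315 in HD cortex at 13 weeks, against 177 and 233 in WT striatum and cortex. At 8 weeks it was at 231 and 204 TMM-scaled CPM in HD striatum against 162 in WT, and at 301 and 307 in HD cortex against 245 in WT. Its log2 fold change at 13 weeks was 0.67 (SE 0.15, edgeR adjusted p = 0.0213). The gene shares 11.6% of its exon bases with Ahsa2 on the opposite strand, and since the strand setting of the counting is not given, reads from the 2 genes may not be told apart. For Usp2 the log2 fold change was -0.78 (SE 0.17, edgeR adjusted p = 0.0172). The values of these 4 members did not overlap between genotypes in either region.

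Usp28 had the lowest estimate of all 46 members in this comparison, a log2 fold change of -1.39 (SE 0.40, 95% interval -2.26 to -0.52), and its edgeR adjusted p of 0.0562 missed the threshold. A two-sided exact permutation test of genotype within region gave p = 0.111, the smallest that 1 WT library per region allows. Usp28 passed in DESeq2 (adjusted p = 0.0171) and in some other fits, with adjusted p from 0.0171 to 0.327 over all alternatives. Usp7 had a log2 fold change of 0.43 (edgeR adjusted p = 0.0718), Usp37 one of 0.81 (edgeR adjusted p = 0.0864) and Usp31 one of -0.52 (edgeR adjusted p = 0.0960). Usp14, a deubiquitinase bound to the proteasome, had a log2 fold change of -0.04 (95% interval -0.31 to 0.23).

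With no overlap in either region, 13 members were higher in HD mice (28.3%, against 21.3% of all genes) and 9 were lower (19.6%, against 22.7%). None of the 4 calls remained without the WT striatal or the WT cortical library of 13 weeks, with adjusted p up to 0.279. Of the post-symptomatic HD libraries, striatal replicate 1 was needed for the calls of Usp34 and Usp2, and cortical replicate 1 for that of Usp2. The share of all genes called was not counted in the fits without 1 library. Without replicate 2 of pre-symptomatic striatum, 8 members passed, these 4 among them and Usp28 too (adjusted p = 0.0374). Without replicate 2 of post-symptomatic cortex, 5 passed, the 4 and Usp28 (log2 fold change -1.66, adjusted p = 0.0386).

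The 8-week libraries were compared by genotype to see which members differed ahead of symptoms. Usp53 and Usp15 were higher in HD mice and no member was lower. These 2 of 46 members (4.35%) stand against 2.1% of all genes tested, and against 1.95% tested as higher. The median log2 fold change was 0.12 over the members and -0.011 over all genes. This comparison shares the pre-symptomatic HD libraries with the comparison of stages, in which Usp15 fell. Some 12 members were higher (26.1%, against 15.4% of all genes) and 5 lower (10.9%, against 15.3%) with no overlap in either region.

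Usp53 was at 9.68 and 9.57 TMM-scaled CPM in pre-symptomatic HD striatum and 6.94 and 9.02 in cortex, against 2.21 and 2.64 in WT striatum and cortex at 8 weeks. Its log2 fold change was 1.85 (SE 0.35, edgeR adjusted p = 0.0201), on counts of 22 to 103 per library over the series. Between HD stages it was -0.04 (SE 0.26, 95% interval -0.61 to 0.53). For Usp15 the log2 fold change against WT was 0.75 (SE 0.16, edgeR adjusted p = 0.0329) at 8 weeks and 0.04 (95% interval -0.30 to 0.37) at 13 weeks.

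Usp28 had the second lowest estimate at -0.72 (SE 0.40, edgeR adjusted p = 0.462), below which lay only Usp19 at -0.73 (SE 0.27, edgeR adjusted p = 0.230). Without the WT striatal library of 8 weeks that of Usp28 was -0.15, and without the WT cortical one -1.14. The value of Usp19 rested on the WT striatal library and was 0.03 without it, and -1.32 (edgeR adjusted p = 0.0241) without the WT cortical library. Usp25 had a log2 fold change of 0.63 (SE 0.19, edgeR adjusted p = 0.150). The two-sided exact permutation test of Usp28 gave p = 0.222, with 0.111 the smallest possible. The call of Usp53 did not pass without cortical replicate 2 of pre-symptomatic HD or without either WT library of 8 weeks (adjusted p up to 0.254). That of Usp15 did not pass in 7 of the 12 fits that left out 1 library, among them the fit without the WT striatal library (0.397). Both passed without replicate 2 of pre-symptomatic striatum, and both passed without replicate 2 of post-symptomatic cortex.

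The change between stages in HD mice was also set against the change with age in WT mice. The WT libraries of 8 weeks were male and those of 13 weeks female, so age and sex cannot be told apart in WT. No member passed in edgeR, against 0.116% of all 14706 genes. The unadjusted p was under 0.05 for 1312 of these genes and for 3 of 46 members. These were Usp2 at a log2 difference of -0.94 (SE 0.25, adjusted p = 0.203 in edgeR and 0.0432 in DESeq2), Usp15 at -0.72 (SE 0.22, edgeR adjusted p = 0.277) and Usp19 at 1.196 (SE 0.39, edgeR adjusted p = 0.323), or 0.43 without the WT striatal library of 8 weeks. For Usp28 it was -0.67 (95% interval -1.92 to 0.59, edgeR adjusted p = 0.832), or -1.26 without the WT striatal and -0.26 without the WT cortical library of 8 weeks. Usp2 passed in edgeR in 1 of the 12 fits that left out 1 library. That fit dropped the striatal library that stood apart (log2 difference -1.04, adjusted p = 0.0296). The adjusted p was up to 0.882 in the others. With the cortical library that stood apart dropped, Usp2 was at -0.93 (edgeR adjusted p = 0.324). The difference between HD and WT was not shown to differ between regions for any member at either age, and 0% of all 15337 genes passed in edgeR. At an unadjusted p under 0.05 were 1 of 46 members and 465 genes at 13 weeks, and 3 members and 865 genes at 8 weeks. DESeq2 called no member at either age.

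**Figure D4:**
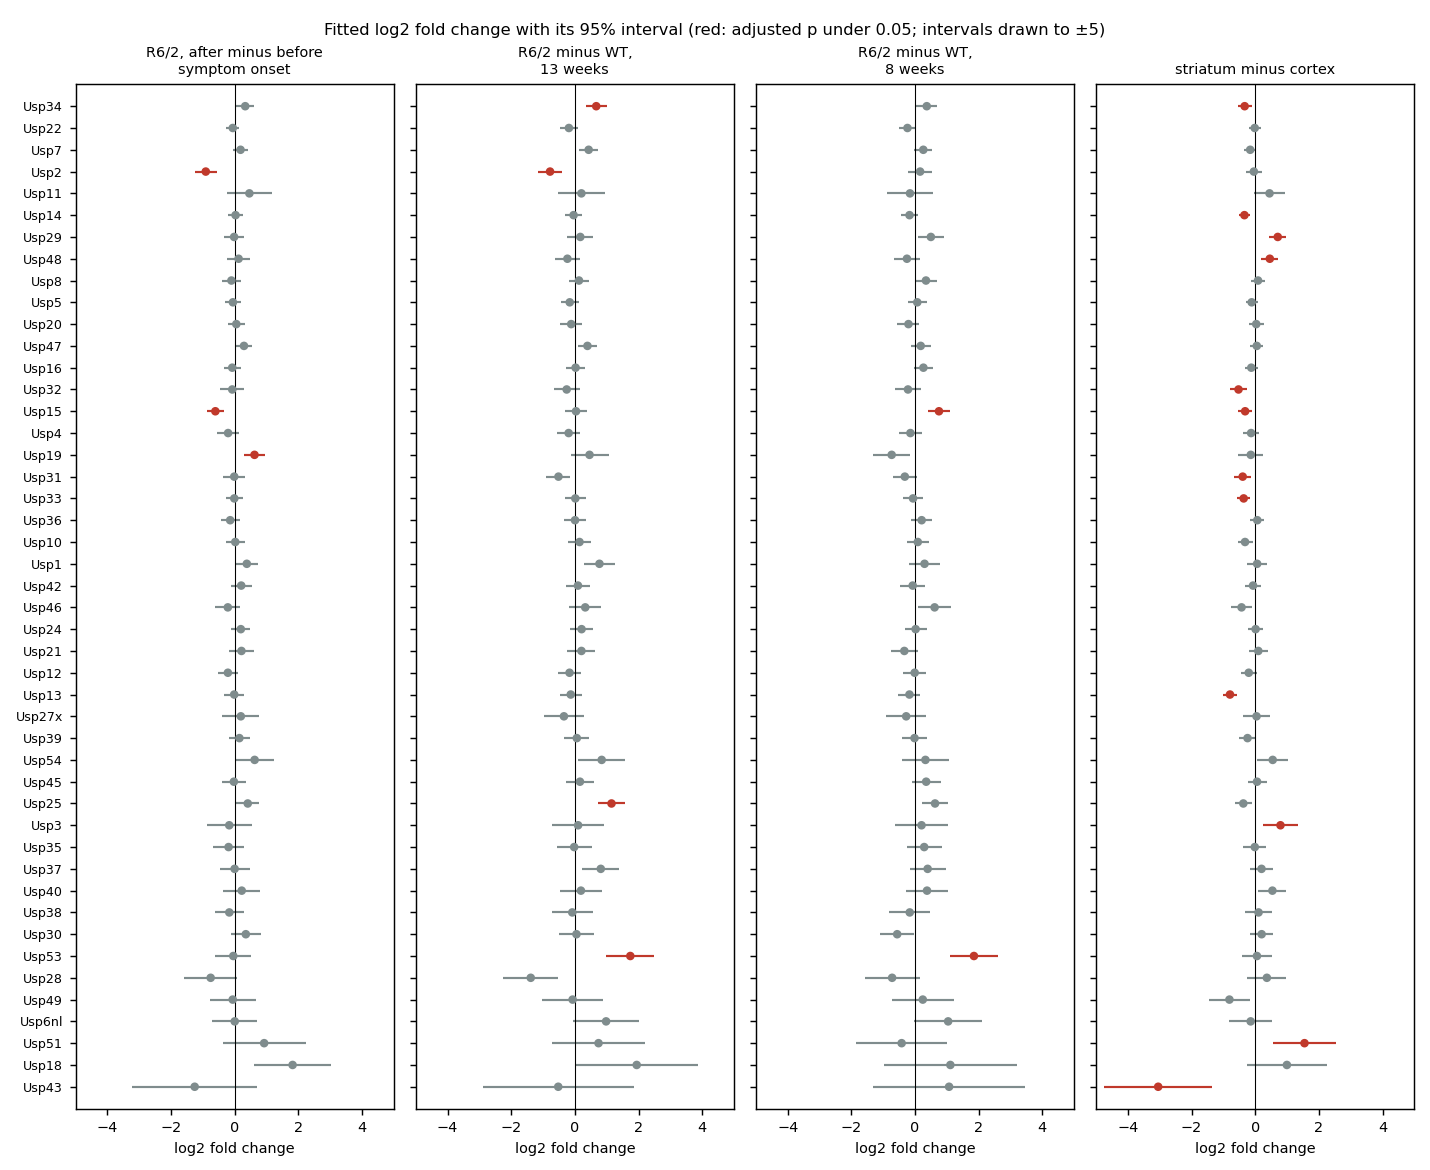
Fitted log2 fold change and 95% interval of the 46 tested members, in order of mean level, in 4 comparisons; red marks an adjusted p under 0.05 in edgeR. Usp28 has the lowest estimate in HD (R6/2) against WT at 13 weeks, at -1.39, and 12 members are red in striatum minus cortex.

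Striatum and cortex were compared over all 12 libraries. Here 12 of 46 members (26.1%) passed, against 20.6% of all genes tested, 4 of them higher in striatum (8.70% against 8.51%) and 8 higher in cortex (17.4% against 12.1%). Usp29, Usp3, Usp48 and Usp51 were higher in striatum. Usp43, Usp13, Usp32, Usp31, Usp33, Usp14, Usp34 and Usp15 were higher in cortex. Usp28 was at a median of 7.93 TMM-scaled CPM in striatum and 5.05 in cortex, a log2 fold change of 0.36 (95% interval -0.25 to 0.98, edgeR adjusted p = 0.407). It ran from 0.18 without the WT striatal library of 8 weeks to 0.54 without striatal replicate 1 of post-symptomatic HD.

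Usp29 is an imprinted gene expressed from the paternal allele, and its protein acts on p53. The 6 striatal libraries ran from 99.3 to 206 TMM-scaled CPM (median 138) and the 6 cortical libraries from 78.0 to 98.8 (median 88.8). The regions did not overlap, and the log2 fold change was 0.71 (edgeR adjusted p = 0.00171). It shares 14.3% of its exon bases with Zim3 on the opposite strand.

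Usp13 and Usp5 are relatives, and USP5 takes apart free ubiquitin chains. Usp13 ran from 16.5 to 20.5 TMM-scaled CPM (median 18.5) in striatal and from 29.1 to 36.9 (median 31.4) in cortical libraries. Its log2 fold change was -0.79 (edgeR adjusted p = 0.000267) with no overlap, and that of Usp5 was -0.11 (edgeR adjusted p = 0.415).

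Usp14 ran from 102 to 128.9 TMM-scaled CPM (median 111) in striatal and from 129.4 to 151 (median 144) in cortical libraries, with no overlap. Its log2 fold change was -0.34 (edgeR adjusted p = 0.0123), and 26.0% of its exon bases lie on Thoc1, which is on the opposite strand. Usp33, which acts on beta-adrenergic and Robo receptors, ran from 34.2 to 45.7 TMM-scaled CPM (median 40.2) in striatum and from 49.5 to 54.7 (median 51.7) in cortex, at a log2 fold change of -0.36 (edgeR adjusted p = 0.0202). Usp43 ran from 0 to 0.817 TMM-scaled CPM (median 0.191) in striatum and from 1.37 to 2.93 (median 1.96) in cortex, and its fitted value depends on the small constant added to the counts. With Usp29, the 4 cortical members Usp13, Usp14, Usp33 and Usp43 were those whose regions did not overlap, against 2.64% of all genes without overlap higher in striatum and 5.15% higher in cortex.

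The other called members overlapped between regions. Usp3 ran from 10.5 to 32.4 TMM-scaled CPM (median 20.6) in striatum and from 8.48 to 15.1 (median 12.1) in cortex, and Usp51 from 1.61 to 7.72 (median 3.47) and from 0.315 to 2.49 (median 1.46). Usp48 ran from 94.9 to 158 TMM-scaled CPM (median 143) in striatum and from 77.3 to 118 (median 98.9) in cortex. These 3 had the higher median in striatum. Higher in cortex, Usp32 ran from 34.8 to 55.0 TMM-scaled CPM (median 47.8) in striatum and from 53.8 to 82.1 (median 64.5) in cortex, and Usp31 from 29.985 to 58.2 (median 39.1) and from 43.8 to 61.3 (median 55.0). Usp34 ran from 162 to 319 TMM-scaled CPM (median 218) in striatum and from 233 to 335 (median 304) in cortex, and Usp15 from 32.5 to 63.5 (median 44.0) and from 44.7 to 82.7 (median 52.9). Log2 fold changes were 0.79 for Usp3 and 1.55 for Usp51, both histone deubiquitinases, 0.46 for Usp48, -0.53 for Usp32, -0.39 for Usp31, -0.33 for Usp34 and -0.32 for Usp15, with edgeR adjusted p from 0.0117 to 0.0455. Replicate 2 of pre-symptomatic striatum was the lowest striatal library for Usp3, Usp48 and Usp51, and 13 members passed without it, 11 of these 12 among them. Without replicate 2 of post-symptomatic cortex 12 passed, 10 of these 12 among them, with adjusted p of 0.0859 for Usp3 and 0.0606 for Usp51. Usp13, Usp14, Usp29, Usp32 and Usp43 passed without any 1 library. Usp15 passed in 2, Usp3 in 2, Usp31 in 5, Usp34 in 5, Usp51 in 6, Usp33 in 9 and Usp48 in 10 of the 12 fits that left out 1 library, with adjusted p up to 0.134 in the others.

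By role, the groups were small, and the shares of all genes called were 6.45% between stages, 7.36% and 2.1% between genotypes at 13 and 8 weeks and 20.6% between regions (8.51% higher and 12.1% lower in striatum). The DNA damage and p53 group was 13 tested members, Usp28 included, and left out Usp2, which acts on MDM2 but was listed with endosomes, receptors and synapses. None of the 13 passed between stages or between genotypes in edgeR, and its median log2 fold change was 0.12 between stages and 0.16 in HD against WT at 13 weeks. In striatum against cortex 3 of the 13 (23.1%) were higher (Usp3, Usp29 and Usp48) and none lower. Of 8 tested histone deubiquitinases none passed between stages or genotypes, and Usp3 and Usp51 were higher in striatum. Of 8 tested members acting at endosomes, receptors or synapses, Usp2 passed as described, and 3 were lower in striatum (Usp31, Usp32 and Usp33). Of the 3 members acting on free chains or the proteasome none passed between stages or genotypes and 2 were lower in striatum (Usp13 and Usp14). Of the 4 at mitochondria or the endoplasmic reticulum, Usp19 and Usp15 passed as described. So did Usp25 of the 2 members of interferon signalling, and Usp53 of the 3 that were listed under splicing or as inactive.

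Of 13 pairs of relatives within the family, both had the same sign of log2 fold change in 6 pairs between stages, in 6 in HD against WT at 13 weeks, in 6 at 8 weeks and in 5 between regions. Between HD and WT at 13 weeks, Usp25 and Usp28 had log2 fold changes of 1.15 and -1.39. Usp53 and its relative Usp54 had 1.74 and 0.84, the latter with an edgeR adjusted p of 0.164. Between stages, Usp15 and its relative Usp4 had -0.61 and -0.21 (edgeR adjusted p = 0.473 for Usp4), and the other relative, Usp11, had 0.46 (edgeR adjusted p = 0.418). The difference between relatives was not tested.

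Deubiquitinases of other families were counted beside the family, 35 of them tested. Those called were 1 between stages (2.86%, against 6.45% of all genes), 5 in HD against WT at 13 weeks (14.3%, against 7.36%), 1 at 8 weeks (2.86%, against 2.1%) and 7 between regions, where 20.6% of all genes passed. After symptom onset 1 was higher, Psmd14, the deubiquitinase of the proteasome lid (log2 fold change 0.45, edgeR adjusted p = 0.0405). In HD against WT at 13 weeks 3 were higher, Zufsp at 2.16, Otud6b at 0.77 and Vcpip1 at 0.53, and 2 lower, Josd1 at -1.04 and Otub2 at -0.89 (edgeR adjusted p from 0.0158 to 0.0376). At 8 weeks Otud6b was higher at 0.87 (edgeR adjusted p = 0.0408). Between regions 2 were higher in striatum, Cyld at 1.03 and Otud4 at 0.60, and 5 higher in cortex, with Otub2 at -0.99, Otud7a at -0.81 and Uchl5 at -0.72 the furthest. None of the calls between stages or genotypes held in every fit that left out 1 library, with adjusted p up to 0.407.

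Of 10 partners of the family and genes of the FBXW7 axis, Fbxw7 fell between stages (log2 fold change -0.96, edgeR adjusted p = 0.00524) and was lower in HD than in WT at 13 weeks (-0.90, edgeR adjusted p = 0.00597, up to 0.114 without the WT striatal library). It ran from 139 to 727 TMM-scaled CPM, far above Usp28 in every library. Gmps, whose protein binds USP7, was higher in HD at 13 weeks (1.42, edgeR adjusted p = 0.0125, up to 0.218 without the WT striatal library). Between regions, Atxn7 of the SAGA complex was higher in striatum (0.46) and Fbxw7 (-1.20) and Atxn7l3 of the same complex (-0.71) were higher in cortex. Chek2 had a log2 fold change of 0.53 between stages (edgeR adjusted p = 0.647), or 0.20 to 0.81 without 1 library, and one of -0.60 against WT at 13 weeks (edgeR adjusted p = 0.641), or -0.95 to -0.20 without 1 library. Cops6 had 0.02 (edgeR adjusted p = 0.944) and 0.06 (edgeR adjusted p = 0.846).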

How the data were processed

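Total RNA of 12 samples was made into QuantSeq 3′-end libraries. The authors deposited raw read counts per gene symbol for each sample, and the submitters' processing notes name Bowtie2, bedtools and mm10. The counting rule and strand setting are not given in the sources used here. The tables repeat a symbol in 44 rows, none a member, which were kept as rows of their own.

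Counts were tested in R 4.3.3 with edgeR 4.0.16 (robust quasi-likelihood, TMM scaling, filterByExpr with a minimum count of 10, Benjamini-Hochberg over all genes tested, threshold 0.05). HD stages were fitted on 8 libraries with region as a term, genotype and region on all 12, and regional effects with a mean per group. DESeq2 1.42.0 and limma 3.58.1 were alternatives. Scripts were tested on simulated data. Repeat libraries differed by more than sampling noise. Gene positions and overlaps came from GENCODE M21 on GRCm38.

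Values in each library were given for Usp28, Usp25 and members called between stages or genotypes, ranges with medians for members called between regions, and mean levels for the 3 highest members. Usp12, Usp14 and Usp47 were named beside them, as were called genes of the related lists. Members, lists and tests were chosen with earlier results of these data known, so no result is independent of them.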

Additional observations from a re-analysis of the deposited data

How the results depend on the processing

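The number of members called moved with the threshold, the tool and single libraries, and the cause was not tested. At an adjusted p under 0.01 the counts were 0 between HD stages, 1 in HD against WT at 13 weeks, 0 at 8 weeks, 2 between regions and 0 between stages in cortex. DESeq2 called 8 members at 13 weeks (Usp1, Usp7, Usp28 and Usp37 beside the 4), 1 between stages in striatum, 2 in cortex and 1 where the change between stages was set against WT. Upper-quartile scaling called 0 between stages in cortex. A mean for each of the 8 groups called 0 at 8 weeks and 7 between regions. Leaving out 1 library at a time gave 0 to 5 members between stages, 0 to 8 at 13 weeks, 0 to 2 at 8 weeks, 6 to 14 between regions, 0 to 4 between stages in striatum, 0 to 3 in cortex, 0 to 1 for the change set against WT and 0 to 1 for the regional difference at 8 weeks. The count for striatum against cortex was lowest without cortical replicate 2 of pre-symptomatic HD.

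At 13 weeks Usp28 passed at a log2 fold change of -1.40 in DESeq2 (adjusted p = 0.0171), -1.40 with at least 1 CPM in every library (0.0461), -1.49 in voom with libraries of the same genotype, age and replicate number taken as 1 mouse and used as a random block (0.0360) and -1.46 with a mean per group (0.0390). Without 1 library it lay between -1.66 and -1.15. Usp28 between stages in cortex turned to 0.0086 with upper-quartile scaling and ran from -0.36 to 0.31 without 1 library, and its regional difference at 8 weeks ran from -0.60 to 0.057. Cops6 ran from -0.056 to 0.085 between stages and from -0.033 to 0.16 at 13 weeks without 1 library. At 13 weeks Usp14 turned to 0.012 with upper-quartile scaling and Usp15 to -0.030 with a sex term, and Usp15 ran from -0.032 to 0.11 without 1 library. Usp53 ran from -0.23 to 0.15 between stages and Usp19 from -1.32 to 0.034 at 8 weeks. Of 1747 recomputed values 17 changed direction, all in the results named in this paragraph or in the replicate block. A sex term in the fit of HD libraries is the same as the replicate number, and a group left with no library gives no regional difference.

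Correlations of same-numbered libraries' deviations were 0.127 between post-symptomatic regions, 0.0697 between pre-symptomatic regions and -0.0256 to 0.156 between ages, so the numbers were not taken to pair samples. With the replicate block 7 members were called at 13 weeks, where Usp14 turned to 0.031, and the voom fit with the assumed mouse as a random block called 1 at 8 weeks. Counts of 25 to 142 limit what can be shown for Usp28, and 1 WT library per age and region limits every comparison with WT.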
